A study of Mus musculus with 4 samples.

Results

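The comparison set a lung tumor of a wild-type (WT) mouse against normal lung of the WT, with 1 exome library of genomic DNA on each side. Its members were all 792 tandem duplication records of the WT table, of 1404 records in the series, and the other 612 came from lungs of mice heterozygous for FEN1 A159V. A record was placed in a class by the deposited read counts alone: duplicated reads in the tumor but 0 in normal lung (tumor alone), the reverse (normal alone), or at least 1 in each (both). The labels give both WT samples the genotype wildtype, although their treatment field names a FEN1 gene knock-in for all 4 samples of the series. Strain, age, sex, how the tumor arose, and whether tumor and normal lung came from the same animal are not stated in the labels. Exome DNA carries no cell type marker, so the labelled tissues were not checked against one. Fen1 itself, on chromosome 19 from 10199132 to 10204393, held 0 records. With 1 library a side there is no replicate and no test between tumor and normal lung. All intervals below are at 95% and cover counting error only.

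FEN1, flap endonuclease 1, removes the 5' flap that forms when DNA polymerase displaces the start of the next Okazaki fragment on the lagging strand, so that DNA ligase can seal the nick. A flap that escapes removal can anneal and be joined, which leaves a short segment copied in tandem. Tandem duplications also arise by slippage within short repeats, and arrays of a longer unit (minisatellites) differ in copy number between mice, so a mouse can carry more copies than the reference genome in every tissue.

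The printed sequences show the kinds of duplication on which the classes differed or agreed. All are written on the plus strand of GRCm38, 5' to 3', and positions are those of the segment that was copied. In the first set, chosen because several records repeat a longer unit, the copied segment stands in capitals and the intervening bases of the altered allele follow in lower case. The next copy of the segment, which closes the insertion, is not printed, and n stands for a base that the deposited allele leaves as N.
Irak4, both, chr15:94563066-94563088: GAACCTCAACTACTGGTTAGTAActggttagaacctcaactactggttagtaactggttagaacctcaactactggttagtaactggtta
C2cd2l, both, chr9:44317711-44317752: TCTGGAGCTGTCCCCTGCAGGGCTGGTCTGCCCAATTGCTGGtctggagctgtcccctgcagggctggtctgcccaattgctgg
Agtrap, both, chr4:148084019-148084052: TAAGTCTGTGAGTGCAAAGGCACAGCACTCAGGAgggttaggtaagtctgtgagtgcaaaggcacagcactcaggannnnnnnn
Fgfr2, tumor alone, chr7:130218653-130218681: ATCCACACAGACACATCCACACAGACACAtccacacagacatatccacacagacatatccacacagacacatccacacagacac
Sucla2, tumor alone, chr14:73592753-73592793: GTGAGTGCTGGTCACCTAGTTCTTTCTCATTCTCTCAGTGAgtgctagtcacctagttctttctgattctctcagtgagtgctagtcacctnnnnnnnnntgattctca
Fbxo34, normal alone, chr14:47515897-47515931: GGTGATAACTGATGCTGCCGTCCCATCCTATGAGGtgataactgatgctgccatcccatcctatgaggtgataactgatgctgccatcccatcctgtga
Mov10l1, normal alone, chr15:89011983-89012023: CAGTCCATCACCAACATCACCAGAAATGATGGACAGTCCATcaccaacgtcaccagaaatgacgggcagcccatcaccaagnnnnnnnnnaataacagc
The Irak4 insertion of 90 bases was 3 times a unit of 30 bases, and the Fgfr2 insertion of 84 bases was 6 times a unit of 14 bases. The C2cd2l insertion of 84 bases was 2 times a unit of 42 bases, and Agtrap had the same 2 lengths. In Fbxo34 and in Mov10l1, the insertion of 99 bases was 3 times a unit of 33 bases. The Sucla2 insertion of 109 bases was 2.95 times a unit of 37 bases.

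A second set shows insertions of 1 length that were entered as several records, with copied segments that end at different bases. Capitals again mark the copied segment.
Fanca, tumor alone, shortest, chr8:123306557-123306590: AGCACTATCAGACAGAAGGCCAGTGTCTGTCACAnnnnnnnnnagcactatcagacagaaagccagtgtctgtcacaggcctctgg
Fanca, tumor alone, 1 base longer, chr8:123306557-123306591: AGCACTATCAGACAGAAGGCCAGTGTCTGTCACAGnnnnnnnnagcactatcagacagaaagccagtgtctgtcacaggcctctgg
Fanca, both, chr8:123306557-123306601: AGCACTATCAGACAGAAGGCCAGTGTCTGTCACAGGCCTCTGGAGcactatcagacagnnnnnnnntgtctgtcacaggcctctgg
Pigu, tumor alone, chr2:155315785-155315827: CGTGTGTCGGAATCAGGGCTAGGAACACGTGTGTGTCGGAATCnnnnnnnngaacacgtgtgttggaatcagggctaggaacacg
Pigu, normal alone, chr2:155315785-155315829: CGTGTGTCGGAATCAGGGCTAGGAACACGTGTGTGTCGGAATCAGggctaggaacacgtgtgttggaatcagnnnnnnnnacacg
The 3 Fanca records had the same inserted length, 86 bases, and no mismatch between any 2 of them at the 69 to 77 bases that both alleles resolve. The 2 Pigu records, 1 seen in the tumor and 1 in normal lung, had 85 inserted bases and no mismatch over 69 bases.

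The third set gives copied segments of other kinds. It holds exact copies, which have no intervening bases, in Rpap3, Foxd4 and Blm. It also holds simple repeats, with the homopolymer or the repeated unit in capitals, and segments from places where records crowd together.
Rpap3, tumor alone, first, chr15:97686378-97686410: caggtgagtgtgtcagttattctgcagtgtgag
Rpap3, tumor alone, the other, chr15:97686386-97686418: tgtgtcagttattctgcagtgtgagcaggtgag
Rpap3, both, chr15:97686399-97686431: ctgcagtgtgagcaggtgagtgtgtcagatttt
Foxd4, normal alone, chr19:24899981-24900022: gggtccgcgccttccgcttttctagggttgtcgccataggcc
Blm, tumor alone, chr7:80505318-80505358: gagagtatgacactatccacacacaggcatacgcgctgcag
A homopolymer, tumor alone, no gene, chr2:22704344-22704378: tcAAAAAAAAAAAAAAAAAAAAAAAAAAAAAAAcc
T homopolymer, normal alone, no gene, chr13:54452498-54452545: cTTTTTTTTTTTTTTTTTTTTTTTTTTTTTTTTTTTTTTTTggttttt
AC repeat in Ogfrl1, tumor alone, chr1:23378841-23378884: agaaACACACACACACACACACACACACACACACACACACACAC
repeat array, both, no gene, chr2:98666884-98666929: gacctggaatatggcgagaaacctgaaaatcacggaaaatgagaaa
repeat array, tumor alone, no gene, chr2:98666881-98666929: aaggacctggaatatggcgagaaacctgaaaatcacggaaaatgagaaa
Chl1, both, chr6:103649107-103649152: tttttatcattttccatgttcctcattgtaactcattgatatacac
The 2 Rpap3 segments of the tumor alone were the same 33 bases begun at different points of the circle, with 0 mismatches, and each differed by 2 mismatches from the segment that was seen in both libraries. The last 46 bases of the tumor-alone array segment are the array segment seen in both libraries.

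Of the 792 records, 453 (57.2%; 53.7 to 60.7) were tumor alone, 290 (36.6%; 33.3 to 40.1) were normal alone and 49 (6.19%; 4.61 to 8.10) were in both. Most single-library records were seen once. The 453 tumor-alone records held 503 duplicated reads in all, and 91.6% of them had 1 read. The 290 normal-alone records held 297 reads, and 97.9% had 1 read. The excess of tumor-alone records was larger among records seen more than once: with 1 duplicated read the counts were 415 and 284, a ratio of 1.46 (1.25 to 1.71), and with 2 or more they were 38 and 6, a ratio of 6.33 (2.66 to 18.3). Outside the crowded repeat arrays described below, the records with 2 or more reads numbered 29 and 6, a ratio of 4.83 (1.97 to 14.2). All 49 records of the class seen in both libraries have at least 2 reads by definition. Among the 41 records with 3 or more duplicated reads, 33 (80.5%; 65.1 to 91.2) were in both libraries, 7 were tumor alone and 1 was normal alone. Reads were summed over both libraries for this cut, so a record seen in both reaches it with fewer reads per library. Class and support come from the same counts, and the 80.5% is not a separate result about the tissues.

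Absence from the other library rested on few reads. Normal lung had 0 reads at the site of 235 of 453 tumor-alone records (51.9%; 47.2 to 56.6), and the tumor had 0 reads at 131 of 290 normal-alone records (45.2%; 39.3 to 51.1). At another 61 and 54 records the other library had 1 or 2 reads. Depths of 100 reads or more were found there for 49 tumor-alone records (10.8%; 8.11 to 14) and 25 normal-alone records (8.62%; 5.66 to 12.5). A library with 0 duplicated reads allows a fraction of up to 3 reads of its depth. Where the other library had 3 reads or fewer, no fraction could exceed that limit. At 20 reads or more there, the fraction in the library with the duplication exceeded it for 1 of 95 tumor-alone and 0 of 59 normal-alone records. Over all depths the limit was exceeded for 1 of 453 tumor-alone records and 3 of 290 normal-alone records. The tumor-alone record lay in Trav4n-4, a variable segment of the T cell receptor alpha locus Tcra (chr14:53302142-53302173), with 1 of 6 tumor reads duplicated and 0 of 21 in normal lung, a limit of 14.3%. The normal-alone record in a gene span was in Tmem245 (1 of 1 normal reads, 0 of 7 tumor reads), and the other 2 were in repeat arrays. Each of these 4 rested on 1 duplicated read. Among the 38 tumor-alone records with 2 or more duplicated reads, normal lung had 0 reads at 19, 1 to 19 reads at 8 and 20 reads or more at 11. At such depths a difference between the tissues was mostly not detectable.

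**Figure D1:**
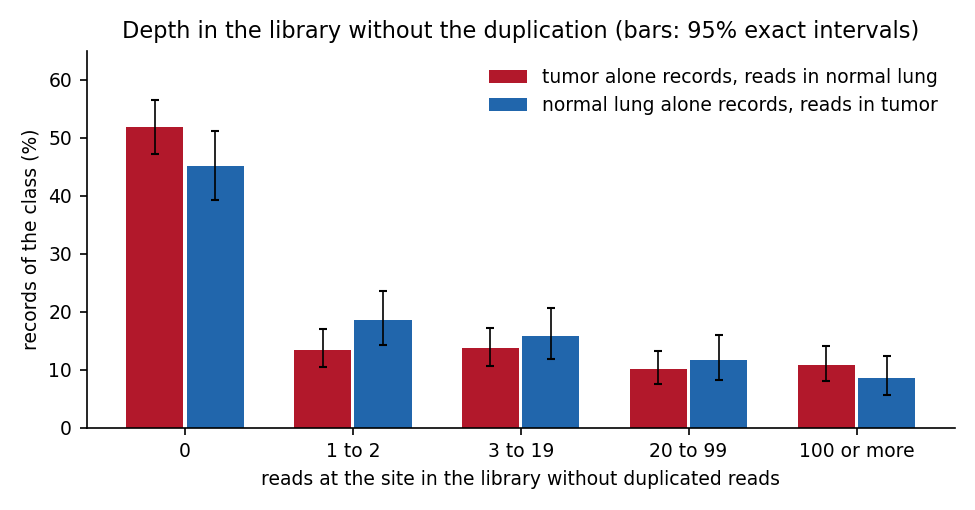
Reads at the site in the library without duplicated reads (x axis, 5 depth bins) as a share of the records of each class (y axis, percent), for 453 tumor-alone and 290 normal-alone records, with 95% exact binomial intervals. The bin of 0 reads is the tallest in both classes, 51.9% and 45.2%.

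Copied segments had much the same length in the 3 classes. The median was 41 bp (40 to 42) in tumor-alone records, 39 bp (37 to 41) in normal-alone records and 44 bp (37 to 45) in records seen in both. The range over all classes was 17 to 49 bp. The longest segments, of 41 to 49 bp, were 53.0% of tumor-alone and 44.8% of normal-alone records, a difference of 8.15 percentage points (0.784 to 15.4), and 59.2% (44.2 to 73.0) of records seen in both. For segments of 17 to 30 bp the shares were 12.4% and 15.9%, and the interval of their difference included 0 (-8.88 to 1.53 points). Without repeat arrays, defined with the crowded windows below, the tumor-alone median was 39 bp (38 to 41). The shortest segment, in Gm34654, a predicted gene on chromosome 9, was an exact copy of 17 bp in an AC repeat with 1 of 1 tumor reads. Where intervening bases were present their median number was 60 in tumor-alone records (58 to 61), 60 in normal-alone records (57 to 62) and 61.5 in both (52 to 66), and none exceeded 69. The whole insertion had a median of 95, 94 and 93 bases, and the longest had 118.

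**Figure D2:**
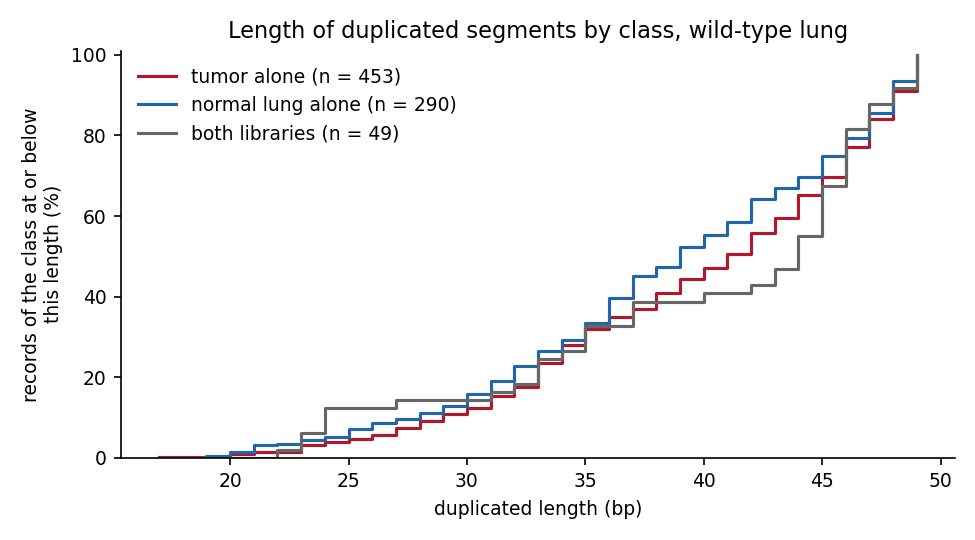
Cumulative share of records (y axis, percent) at or below each duplicated length (x axis, bp) for the tumor-alone (n = 453), normal-alone (n = 290) and both-library (n = 49) classes. The lines end together at 49 bp. At most lengths, those between 36 and 45 bp among them, the normal-alone line lies above the tumor-alone line.

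Sequence content of tumor-alone and normal-alone records differed by less than counting error in most respects. Exact copies were 51 tumor-alone records (11.3%; 8.50 to 14.5) and 38 normal-alone records (13.1%; 9.44 to 17.5), but 1 of 49 in both (2.04%; 0.0517 to 10.9), the 33-bp segment of Rpap3. A segment was called a simple repeat by its bases together with the 1 base before it. These had to contain a run of 8 or more equal bases or a repeated unit. The unit had 2 to 6 bp and was repeated 3 times or more over 12 bp or more. Simple repeats made up 27.6% (23.5 to 32.0) and 32.4% (27.1 to 38.1) of the single-library classes and 6.12% (1.28 to 16.9) of records seen in both. Homopolymers of A or T were found in 55 tumor-alone and 39 normal-alone records, and homopolymers of G or C in 13 and 10. AC repeats were found in 15 and 15. Records seen in both held none of these 3 kinds (0 of 49 each, with an exact interval up to 7.25%). The low share of simple repeats went with read support and not only with class: with 1 duplicated read the shares were 29.6% of tumor-alone and 33.1% of normal-alone records, and with 2 or more reads 2 of 38 and 0 of 6.

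Many insertions consisted of a longer tandem unit. Among records with intervening bases that were not simple repeats, the inserted sequence was searched for the shift of at least 7 bases at which it matched itself best, and a longer unit was called at 80% identity over at least 20 compared bases. Such a unit was found in 73 of 299 tumor-alone records (24.4%; 19.7 to 29.7), 40 of 178 normal-alone records (22.5%; 16.6 to 29.3) and 21 of 45 records seen in both (46.7%; 31.7 to 62.1). Outside repeat arrays the shares were 30%, 26.1% and 70%. At sites with 20 reads or more in both libraries, repeat arrays included, few records had such a unit: 3.26% (0.678 to 9.23) of tumor-alone, 1.85% (0.0469 to 9.89) of normal-alone and 0% (0 to 16.8) of both-library records, so the higher share of the records seen in both was not found there. Over all depths, the share moved with support. Tumor-alone records with 1 duplicated read had such a unit in 52 of 264 cases (19.7%; 15.1 to 25), and those with 2 or more in 21 of 35 (60%; 42.1 to 76.1). Normal-alone records had it in 36 of 172 (20.9%; 15.1 to 27.8) and 4 of 6. The insertion was a whole number of units in 59 of 73, 32 of 40 and 19 of 21 of these records. Median unit lengths were 31 bp (28 to 39), 36 bp (31 to 40) and 41 bp (33 to 44) in the same order. This search was chosen after the sequences had been seen.

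Further stretches of the copied segment lay between the copies in 33.0% of tumor-alone, 32.4% of normal-alone and 53.3% (37.9 to 68.3) of both-library records that were searched. A whole further copy was found in 7 of 297 tumor-alone records (2.36%), 11 of 176 normal-alone records (6.25%) and 9 of 45 records seen in both (20%; 9.58 to 34.6). The tumor-alone share was below the normal-alone share by 3.89 points (-8.64 to -0.244 for tumor minus normal). Stretches of the reverse complement were found in 18 of 297 (6.06%; 3.63 to 9.41), 6 of 176 (3.41%; 1.26 to 7.27) and 0 of 45. The longest inverted stretch among the named records, 36 bases, was in the predicted gene Gm8922 on chromosome 5, where 2 of 41 normal reads and 0 of 39 tumor reads were duplicated. Insertions whose length was a multiple of 3 made up 36.2% (31.8 to 40.8), 42.4% (36.7 to 48.3) and 53.1% (38.3 to 67.5) of the classes. Within protein-coding gene spans they made up 37.2%, 40.9% and 60% (40.6 to 77.3). Intervals of the difference between tumor-alone and normal-alone shares excluded 0 for 2 of the 39 shares compared, segments of 41 to 49 bp and whole further copies, with no adjustment for their number.

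**Figure D3:**
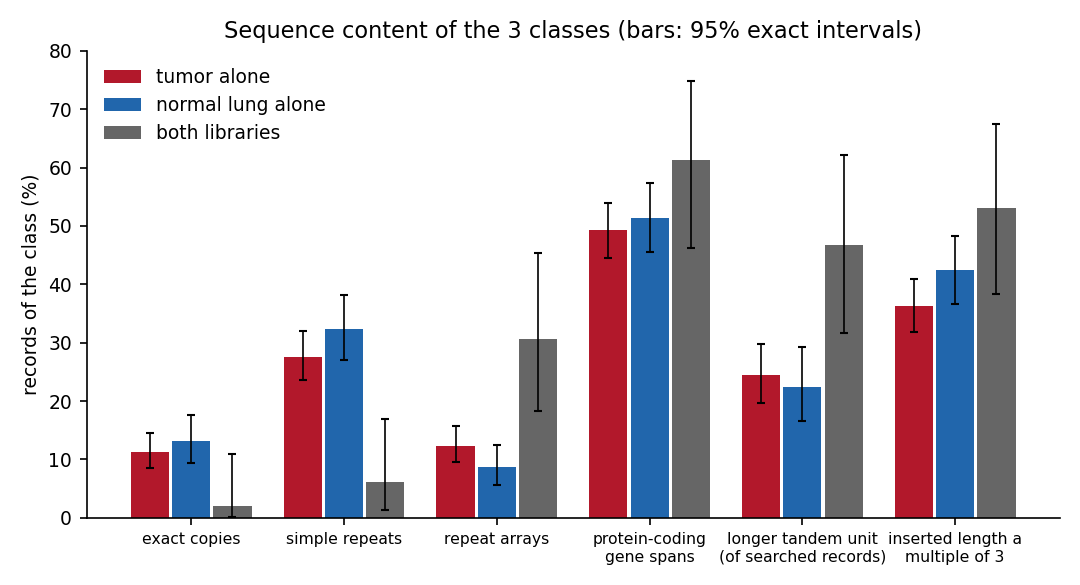
Share of records (y axis, percent) with each kind of sequence content or place (x axis) in the tumor-alone, normal-alone and both-library classes, with 95% exact binomial intervals. The intervals of the single-library bars overlap throughout, and the bars for both libraries are lower for simple repeats (6.12%) and higher for repeat arrays (30.6%) and longer tandem units (46.7%).

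Some records of unlike class matched each other as the same insertion written in more than 1 way, as with Pigu above. Outside repeat arrays 41 pairs of records shared a start or an end. Of these, 28 had equal inserted lengths and 26 differed at no more than 3 of the 58 to 103 bases resolved in both alleles, 15 of them at none. In 19 of the 26 pairs the records belonged to different classes. The pairs joined 39 records into 17 insertions, and 13 of these held records of more than 1 class. In this way 12 tumor-alone and 10 normal-alone records belonged to insertions that had reads in both libraries. They included records in C2cd2l, which encodes a lipid transfer protein, in Fanca, a subunit of the Fanconi anaemia core complex, and in Cmya5, which encodes a large muscle protein. Merging such records gave 438 tumor-alone, 279 normal-alone and 53 shared insertions, a ratio of 1.57 (1.35 to 1.83), so the excess in the tumor stood after merging.

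Among the 49 records seen in both libraries, the fraction of duplicated reads was higher in the tumor in 13, higher in normal lung in 24 and equal in 12. The intervals of the fractions overlapped in all 49, which does not show that they are alike, since 23 of them had fewer than 5 reads in at least 1 library. In 10 records every read was duplicated in both libraries. Chsy3, a chondroitin synthase gene on chromosome 18, had 6 of 6 tumor and 2 of 2 normal reads duplicated. Nlrp14, a NOD-like receptor gene on chromosome 7, had 2 of 2 and 4 of 4. Its insertion of 84 bases matched itself best at a shift of 12 bases, with 68.1% identity, too low for a longer unit to be called. Atrnl1, an attractin-like gene on chromosome 19, had 2 of 2 and 2 of 2. Slc6a13, a GABA transporter gene on chromosome 6, had 10 of 12 tumor reads and 2 of 2 normal reads. Irak4, a kinase of Toll-like and interleukin-1 receptor signalling, had 14 of 20 tumor reads (70%; 45.7 to 88.1) and 4 of 15 normal reads (26.7%; 7.79 to 55.1). Rpap3, a chaperone cofactor of RNA polymerase II assembly, had 10 of 26 tumor reads (38.5%; 20.2 to 59.4) and 4 of 21 normal reads (19%; 5.45 to 41.9). Its fraction, like that of Irak4, was the higher in the tumor with overlapping intervals. Of the 21 records with at least 20 reads in both libraries, 8 had the higher fraction in the tumor. Repeat arrays held 15 of the 21, and 6 of those 15 were higher in the tumor. Outside repeat arrays it was 2 of 6. In the immunoglobulin heavy chain locus Igh, 4 of 51 tumor reads and 1 of 30 normal reads were duplicated. The zinc finger genes Zfp984 (1 of 113 tumor and 3 of 118 normal reads) and Zscan18 (1 of 131 and 3 of 93) had the higher fraction in normal lung, and Zfp979 had 1 of 42 and 1 of 38. At sites with such depth outside repeat arrays the median fraction was 1.75% (1.49 to 2.44) over 50 tumor-alone records and 2.44% (1.82 to 3.12) over 39 normal-alone records, where most values stand for a single read.

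Tumor-alone records with most reads were led by Fgfr2, a fibroblast growth factor receptor gene, with 5 of 5 reads, and by a gene-free site at chr14:18366385-18366428 with 4 of 4. Normal lung had 0 reads at both. Sucla2, a subunit of succinyl-CoA ligase, had 3 of 3 with 0 normal reads. Zscan18 had 3 of 135 tumor reads (2.22%; 0.461 to 6.36) and 0 of 98 normal reads, which allows up to 3.06%. This insertion of 108 bases was 3 times a 36-base unit. Its copied segment overlaps that of the Zscan18 record seen in both libraries, with 1 of 131 tumor and 3 of 93 normal reads. The place thus had duplicated reads in both tissues. The remaining leaders lay in the chromosome 2 array, with 2 to 4 of 2471 to 3385 tumor reads. Among tumor-alone records with 2 reads, Mib1, a ubiquitin ligase gene of Notch signalling on chromosome 18, had 2 of 10 against 0 of 10, and Slc11a2, an iron transporter gene on chromosome 15, had 2 of 14 against 0 of 14. Their insertions were 3 times a 36-base unit and 2 times a 52-base unit. These 2 genes were picked after their values had been seen, for their equal depth in both tissues. Normal-alone records were led by a 49-bp segment of Rpap3, with 3 of 18 normal reads and 0 of 15 tumor reads. The insertion of 99 bases was 3 times the 33-base unit of the exact copies, so the locus had reads in both tissues. Mov10l1, a helicase gene of the germline piRNA pathway, had 2 of 21 normal reads against 0 of 13. Fbxo34, an F-box gene, had 2 of 3 against 0 of 2. Map3k2, a kinase gene on chromosome 18, had 2 of 2 with a tumor depth of 0. Gm14710 on the X chromosome had 2 of 64 against 0 of 27. Exact copies of the single-library classes had 1 read each apart from Rpap3. Foxd4, a forkhead factor gene, had 1 of 17 normal reads and 0 of 40 tumor reads, and Gm15107 on the X chromosome had 1 of 171 and 0 of 84.

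Records of the WT recurred at places recorded in the A159V table, within 10 bp, according to their read support. Outside repeat arrays a WT record with 1 read in the tumor alone had an A159V record nearby in 34 of 368 cases (9.24%; 6.48 to 12.7), and one with 1 read in normal lung alone in 24 of 259 (9.27%; 6.03 to 13.5). With 2 or more reads in the tumor alone it was 16 of 29 (55.2%; 35.7 to 73.6), and 14 of these 29 sites had duplicated reads in A159V normal lung. With 2 or more reads in normal lung alone it was 3 of 6 (50%, interval 11.8 to 88.2), and 1 of these 6 had them in A159V normal lung. For records seen in both WT libraries it was 25 of 34 (73.5%; 55.6 to 87.1). The 5 Fgfr2 reads, the 3 Sucla2 reads and the 3 Zscan18 reads of the tumor were at such sites, with reads in A159V normal lung within 10 bp, whereas the 4 reads at chr14:18366385-18366428 had no A159V record that near.

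Records were spread over all 21 chromosomes. The overall ratio of tumor-alone to normal-alone records, 1.56, lay inside the interval of 18 of them. Chromosome 14 had 37 tumor-alone and 12 normal-alone records, a ratio of 3.08 (1.57 to 6.49), and outside repeat arrays 32 and 11, a ratio of 2.91 (1.43 to 6.40) whose interval includes the overall value. Chromosomes 5 and 11 went the other way, with 13 and 18 records and with 16 and 22, ratios of 0.722 (0.325 to 1.56, just short of the overall value) and 0.727 (0.357 to 1.45). Chromosome 19 had 17 and 4, a ratio of 4.25 (1.39 to 17.4). With 21 chromosomes compared and no adjustment, these are descriptions of 2 libraries. The Y chromosome held 11 records with 15 tumor and 5 normal reads in all.

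**Figure D4:**
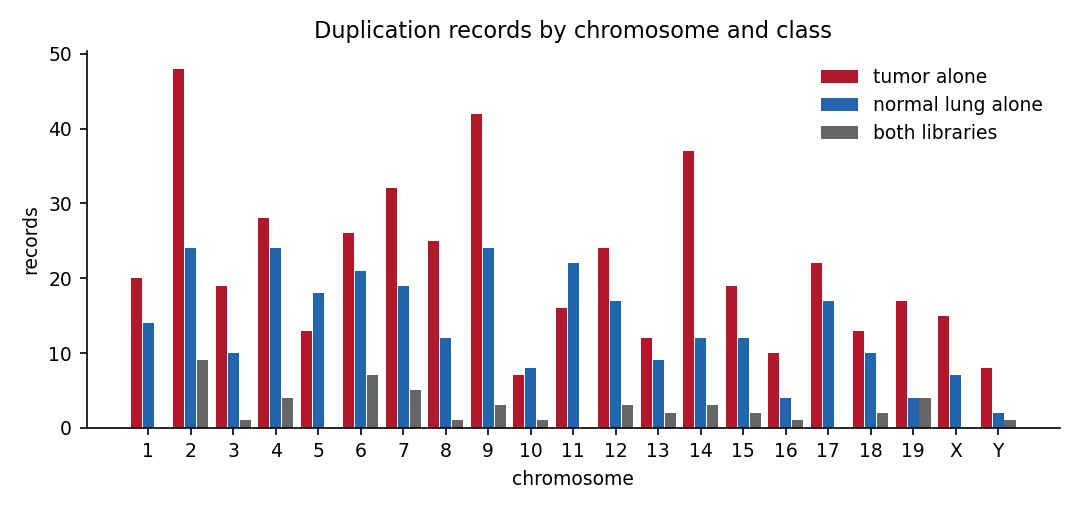
Number of duplication records (y axis) on each chromosome (x axis) in the tumor-alone, normal-alone and both-library classes. Tumor-alone bars are the taller on all chromosomes except 5, 10 and 11, and chromosome 14 has 37 against 12.

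Records crowded into 3 windows of 100 kb with at least 8 records each. A gene-free stretch of chromosome 2 (98662784 to 98667332) held 36 records, 21 tumor alone, 7 normal alone and 8 in both. Another on chromosome 9 (3000069 to 3037411) held 32, with 19, 12 and 1. The third, in the cell adhesion gene Chl1 on chromosome 6 (103649079 to 103649272), held 12, with 5, 2 and 5. These windows, together with segments elsewhere that share at least 2 12-mers with the gene-free windows, are called repeat arrays here; for Chl1 the name rests on crowding and depth alone. They held 12.4% (9.47 to 15.8) of tumor-alone, 8.62% (5.66 to 12.5) of normal-alone and 30.6% (18.3 to 45.4) of both-library records. Median depth was 2580 tumor and 1350 normal reads in the chromosome 2 window, 582 and 378.5 in Chl1, and 190 and 77 in the chromosome 9 window. In the chromosome 2 window 0.0417% of the reads summed over its records were duplicated in the tumor and 0.0240% in normal lung. Chl1 had a record that stood apart, with 44 of 625 tumor reads (7.04%; 5.16 to 9.34) and 37 of 415 normal reads (8.92%; 6.36 to 12.1). Outside repeat arrays 397 tumor-alone and 265 normal-alone records remained, a ratio of 1.50 (1.28 to 1.76).

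Depth of the 2 libraries was compared at loci where they had 40 or more reference reads between them, as the ratio of reference reads plus 1. On autosomes outside repeat arrays the median ratio of tumor to normal lung was 1.05 (1.00 to 1.11) over 94 loci. On the X chromosome it was 0.485, and all 5 loci lay below 1, from 0.353 to 0.646. Their reference reads in tumor and normal lung were 52 and 81, 27 and 62, 17 and 50, 84 and 170, and 80 and 166. Of the 94 autosomal loci, 2 lay below the highest X value and 0 below the X median. In repeat arrays the median ratio was 1.99 (1.87 to 2.10) and all 48 loci lay above 1. On chromosome 19 all 6 loci lay above 1, with a median of 1.42 (1.11 to 2.41), and on chromosome 12 all 7, with a median of 1.19 (1.07 to 1.79). On chromosome 17 all 4 lay below 1, with a median of 0.856 (0.811 to 0.957), and on chromosome 11, 6 of 9 did, with a median of 0.911 (0.761 to 1.06). These loci were recorded because they held a duplication, and the part of depth in the counts of records was not tested. The ratio of records outside repeat arrays, 1.50, was larger than the autosomal depth ratio, but the sites at which most records lie have too few reads to enter it.

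**Figure D5:**
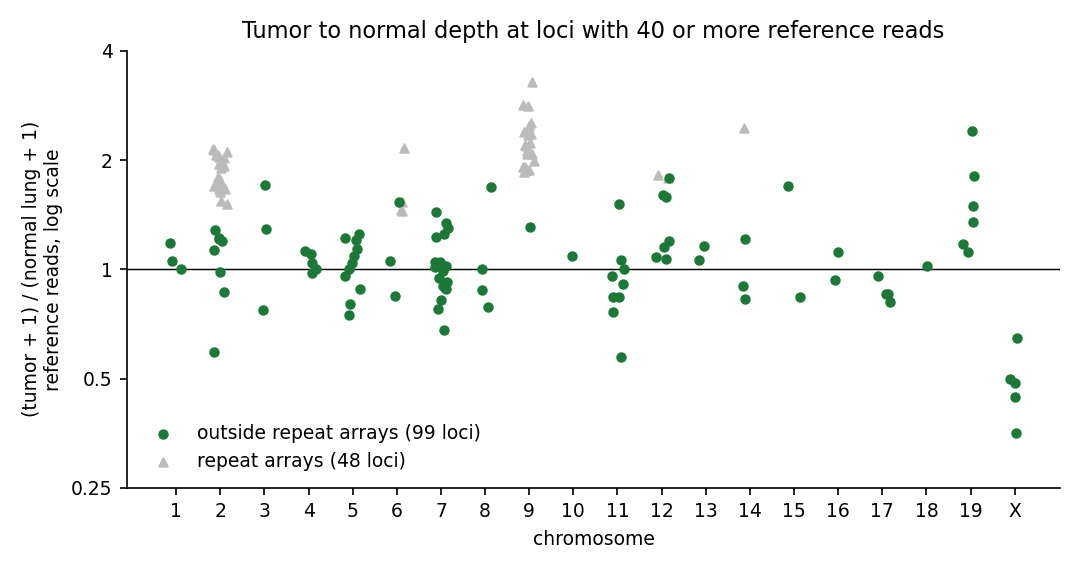
Ratio of tumor to normal lung reference reads, each plus 1 (y axis, log scale), at loci with 40 or more reference reads, by chromosome (x axis). Points are 99 loci outside repeat arrays and triangles 48 loci within them; the 5 X loci lie below 1 and the triangles all lie above it.

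Protein-coding gene spans held 223 tumor-alone records (49.2%; 44.5 to 53.9), 149 normal-alone records (51.4%; 45.5 to 57.3) and 30 of those seen in both (61.2%; 46.2 to 74.8). The gene table gives spans without exons, so the position of a record relative to exons is not known. Of protein-coding genes, 346 had a record, 205 of them a tumor-alone record, 149 a normal-alone record and 24 a record seen in both. In 17 of these genes both tumor-alone and normal-alone records were found, in 10 of them only at loci more than 10 bp apart. Some gene families with many similar copies, where reads can be hard to place, also had records. How surely the reads were placed was not tested. Olfactory receptor genes had 1 record, in the tumor alone. The share of span length that these families take was not computed, so their counts are not set against all genes. Vomeronasal receptor genes had 9 (6 tumor alone, 3 normal alone), Zfp zinc finger genes 12 (5, 4 and 3 in both), and immunoglobulin and T cell receptor genes 10 (4, 5 and 1 in both).

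Genes of lung cancer, Okazaki fragment maturation, end joining, origin firing, crosslink repair, mismatch repair and lung epithelium were looked up as 7 lists. The lung cancer list, of 53 genes, had 9 records in 5 genes, 5 tumor alone and 4 normal alone. They made up 2.24% of records in protein-coding spans, where the list takes 0.859% of span length. Fgfr2 had 2 of the tumor-alone records, the 5 reads above and 2 of 2 reads that differed from them at 2 of 84 bases. By the limit of 3 mismatches used above, these 2 records were 1 insertion, so the list's count of records exceeds its count of insertions. Alk, a receptor tyrosine kinase gene, had 2 tumor-alone records with 1 of 1 reads each. Ptprd, a receptor phosphatase gene, had 1 of 1 tumor reads at one site and 1 of 1 normal reads at another. Epha5, an ephrin receptor gene, had 1 of 41 normal reads against 0 of 32 and 1 of 2 against 0 of 1. Erbb3, a receptor of the EGFR family, had 1 of 33 normal reads against 0 of 35. Among 30 genes of Okazaki fragment maturation and lagging-strand synthesis, Blm, a RecQ helicase gene, had the 1 record, an exact copy in 1 of 3 tumor reads with a normal depth of 0. That is 0.249% of the records in protein-coding spans, against 0.125% of span length. Of 28 genes of origin firing and the replicative helicase, 3 had a record (0.746% of records in protein-coding spans, against 0.0738% of span length): Mcm8 (1 of 2 tumor reads, normal depth 0), Ticrr (1 of 72 tumor reads against 0 of 70) and Gins1 (1 of 1 normal reads, tumor depth 0). Fanca was the 1 gene of 24 in crosslink and recombination repair with a record, and its 3 records (0.746% against 0.136% of span length) were the 1 insertion printed above. Apart from that of the lung cancer list, these shares rest on 1 to 3 records each. End joining (19 genes), mismatch repair (9) and lung epithelium (15) had 0 records. These lists take 0.129%, 0.0503% and 0.0238% of span length, so 0 records is not read as a lack. Each of these list records except those of Fgfr2 had 1 duplicated read per library.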

How the data were processed

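Exomes of WT lung tumor and WT normal lung, 1 library each, were compared through the deposited table of tandem duplications. Per the file headers, duplications were called by Pindel, a split-read caller, on GRCm38. BWA and mm10 are further names in the submitters' processing notes; no version or filter is stated there. Each sample cell of the deposited table holds, per the file headers, a genotype and the counts of reference and duplicated reads, which were used without normalization. All 792 records were marked as passing, and every inserted sequence ended with the copied segment. The deposited genotype held the duplication for only 4 of 792 records in the tumor and 1 of 792 in normal lung. The classes rest on the read counts and not on these genotypes. Reads per site had a median of 2 in the library that held a single-library record and reached 10481. The labels name no molecular identifiers, so reads may be copies of 1 molecule.

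Genes came from spans of the RefSeq table of GRCm38.p6 (49997 genes). Counts carry exact Poisson intervals, shares Clopper-Pearson, ratios exact conditional binomial, medians order-statistic and differences of shares Newcombe intervals, all at 95%. The limit for 0 reads is 3 reads of the depth. Records within 10 bp were treated as 1 locus. Named records were, per class, the 8 with most duplicated reads, the 4 exact copies with most, the 2 shortest and the 2 longest. The 4 with most reference reads in the other library (for both: the 4 most alike fractions at 20 reads or more) were added. Members of the lists were also named. Among these the text gives a selection. It also names Mib1, Slc11a2, Atrnl1, Zfp984, Igh, Cmya5, C2cd2l, Agtrap, Pigu, Ogfrl1, Tmem245 and Trav4n-4, chosen after their values were seen. The members and lists were chosen with earlier results of these data known. Python 3.11.15, pandas 2.3.3, scipy 1.17.1 and statsmodels 0.14.6 were used, and the functions were tested on simulated records. Alternatives were at least 2 duplicated reads, at least 20 reads in both libraries, no crowded windows, merged loci, a stricter repeat rule and gene spans extended by 1000 bp; merging identical insertions and leaving out repeat arrays were added after the data were seen.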

Additional observations from a re-analysis of the deposited data

How the results depend on the processing

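The tumor-alone excess kept its direction under all 6 alternatives tried. Counting a record for a library only at 2 duplicated reads left 51 records in the tumor alone, 14 in normal lung alone and 12 in both, a ratio of 3.64 (1.99 to 7.13). At least 20 reads in both libraries left 93, 57 and 21. Among the 90 values recomputed, 53 stayed within 1.5 times the count or within the interval of the reported value and 37 did not. With at least 2 duplicated reads the median segment was 42.5 bp in normal-alone and 36 bp in both-library records. Exact copies then made up 1.96% of tumor-alone and 0% of normal-alone records, and simple repeats made up 3.92%, 7.14% and 0% of the tumor-alone, normal-alone and both-library classes. Protein-coding spans then held 58.8%, 85.7% and 83.3%. At 20 reads or more in both libraries the median segment was 46 bp in tumor-alone and 44 bp in normal-alone records. Exact copies were 0% and 1.75% there, and simple repeats 1.08%, 3.51% and 0%. The stricter repeat rule gave 19.9% for tumor-alone and 22.8% for normal-alone records. Without repeat arrays the tumor-alone median was 39 bp and its protein-coding share 54.7%. The cause of these shifts was not tested. No paired analysis was possible because each group has 1 library and the labels do not say whether they came from the same animal. Depth limits all of this: 699 of 792 records had 1 duplicated read.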
